A study of Mus musculus with 2 samples.

Results

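In 2 single-cell RNA libraries of mouse liver, 3692 of 13240 cell barcodes drew over 80% of their unique molecular identifiers (UMIs, each counting 1 captured RNA molecule) from genes of the mitochondrial chromosome. These members were selected on that share alone, in each library's own count matrix. There were 2570 among the 7359 barcodes of the chow library and 1122 among the 5881 barcodes of the library from mice on the NASH diet (the NASH library). They were compared with the barcodes of at most 30% mitochondrial UMIs, 4326 from chow and 2370 from the NASH diet. Both groups of mice were C57BL/6, and both diets were fed for 6.5 weeks: ordinary chow in one group, and in the other a diet rich in fructose, fat and cholesterol that gives NASH, a fatty liver disease with inflammation. Whole liver was dissociated with collagenase, and cells of all types, hepatocytes of several densities included, were gathered on Percoll gradients. Each diet had 1 library, of a number of mice not given in the sources used here, so no difference between the diets has a replicate check. Intervals in brackets are exact 95% intervals that cover counting error only.

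Mitochondria keep a small circular chromosome of their own, which is copied from both strands as long RNAs that are cut into ribosomal RNAs, transfer RNAs and mRNAs. The mRNAs encode core subunits of complexes I, III, IV and V of the respiratory chain, receive short poly(A) tails, and stay inside the organelle's double membrane, while mRNAs of nuclear genes lie in the nucleus, in the cytosol or on the endoplasmic reticulum. Hepatocytes are rich in mitochondria. In single-cell data a high mitochondrial share is often used as a sign of broken or dying cells, and such barcodes are commonly removed. Whether any member came from such a cell was not tested here.

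The libraries were made with a 3′ kit, in which reads start from poly(A) stretches near RNA ends. Of the 37 genes that the GENCODE M21 annotation (GRCm38) places on the mitochondrial chromosome, the deposited tables held 13, all of them mRNA genes, with no mitochondrial ribosomal RNA or transfer RNA. The last 30 bases of 4 of these mRNAs are shown because they are the ends next to the tail. Of these, mt-Co1 and mt-Atp6 were taken as marker genes of the members. By log2 ratio of their shares to those of the comparison barcodes, mt-Co3 was the highest and mt-Nd1 the lowest of the abundant mRNAs in both libraries. Capitals mark the stop codon, or the single base of an incomplete stop codon that the poly(A) tail completes. Sequences are from the GENCODE M21 transcripts, 5′ to 3′, all on the plus strand.
mt-Co1 (chrM:5328-6872): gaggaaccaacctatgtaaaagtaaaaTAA
mt-Atp6 (chrM:7927-8607): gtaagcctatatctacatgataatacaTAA
mt-Co3 (chrM:8607-9390): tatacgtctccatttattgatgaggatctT
mt-Nd1 (chrM:2751-3707): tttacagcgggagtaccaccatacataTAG
Of the 13 mRNAs, mt-Co3, mt-Cytb and mt-Nd4 end in such a single T. The models of mt-Atp8 and mt-Atp6 overlap, mt-Co3 starts on the last base of mt-Atp6, mt-Nd4l overlaps mt-Nd4, and mt-Nd6 overlaps mt-Nd5 on the other strand, so reads of these neighbours may have been split unevenly. Nuclear copies of mitochondrial genes in M21, such as Gm10925 with 678 bases identical to mt-Atp6, are not among the deposited features.

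The members were deep in mitochondrial RNA and nearly empty of nuclear-encoded RNA. In the chow library the median member had 4944.5 mitochondrial UMIs, against 191.5 in the barcodes of at most 30%, and 214 nuclear-encoded UMIs against 3327. In the NASH library these medians were 5423.5 against 487, and 317 against 3982.5. The median member showed 151 detected genes in chow and 222 in the NASH library. Since the members were chosen by the mitochondrial share, the low nuclear-encoded share is a description and not a finding. The rule did not set the number of mitochondrial UMIs, but together with the filter to cell barcodes it bounded that number from below. All barcodes had at least 510 UMIs in chow and 744 in the NASH library, and the members at least 792 and 2201 mitochondrial UMIs. Members held 55.6% of all mitochondrial UMIs of the chow library and 46.6% of those of the NASH library, with only 1.42% and 1.93% of the nuclear-encoded ones.

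The barcodes of at most 30% were of 2 kinds in depth. Those with at least 10000 UMIs, a limit chosen after seeing the data, numbered 1895 in chow and 980 in the NASH library, and the rest had medians of 692 and 1365.5 UMIs. The deep ones held 41546308 of the 44882944 nuclear-encoded UMIs of the chow barcodes of at most 30%, and 17725663 of 20385170 in the NASH library. Sums over the barcodes of at most 30% are thus mostly sums of deep barcodes. Against the deep barcodes, members had almost the same amount of mitochondrial RNA: a mean of 5287 mitochondrial UMIs per member against 4867 in chow, or 109%, and 6216 against 4941 in the NASH library, or 126%. In nuclear-encoded UMIs the means were 261 against 21924, or 1.19%, and 420 against 18087, or 2.32%. Members thus carried as many mitochondrial UMIs as the RNA-rich barcodes and about 1 to 2% of their nuclear-encoded ones.

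**Figure D1:**
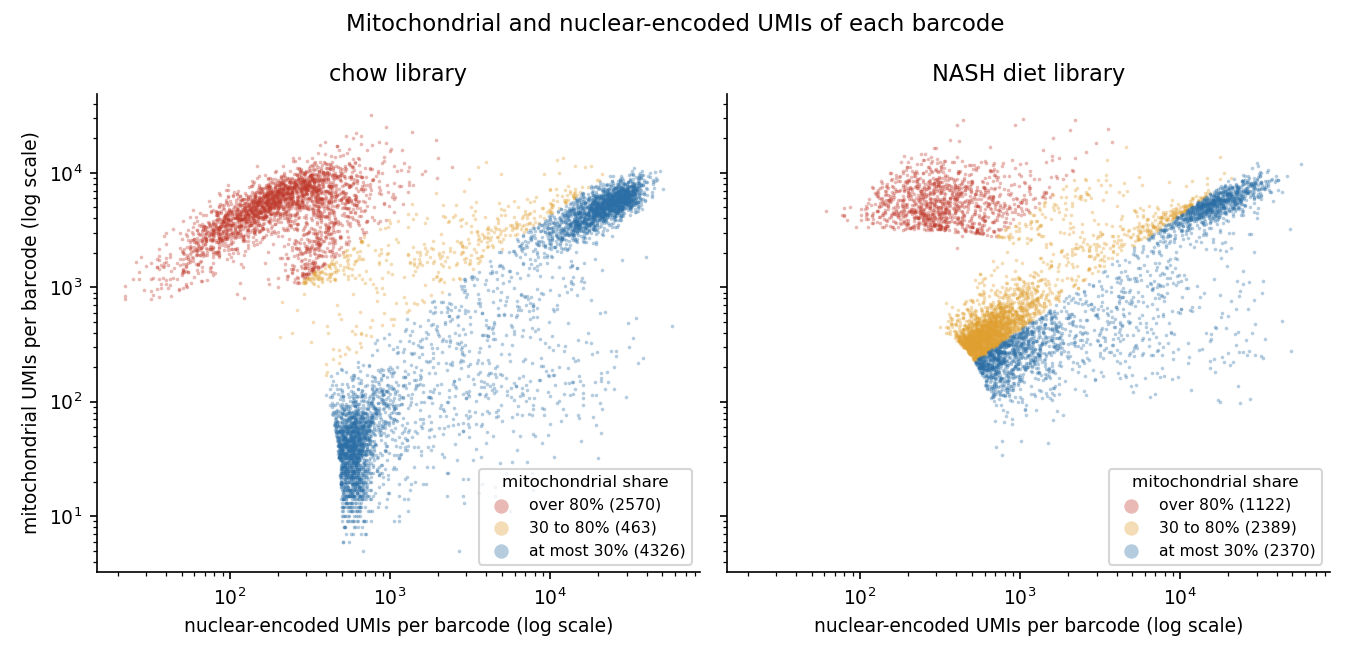
Each point is 1 barcode, with nuclear-encoded UMIs on the horizontal and mitochondrial UMIs on the vertical axis, both on log scales, coloured by mitochondrial share. The members (red) lie at the height of the deep barcodes of at most 30% (upper right, blue), with median mitochondrial UMIs of 4944.5 against 4965 in chow and 5423.5 against 5070 in the NASH library, but far to their left.

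Most members lay well above the limit. The median mitochondrial share was 96.4% in chow and 94.4% in the NASH library, and 1695 of the chow members stood between 95 and 98%. Just inside the limit, at over 80 to 82%, there were 59 chow and 26 NASH diet barcodes, with median mitochondrial UMIs of 1496 and 4339.5. Just outside, at over 78 to 80%, there were 54 and 24, with 1502 and 4379, so barcodes on either side of the limit were alike in depth. Members were 34.9% (33.8 to 36.0) of the chow barcodes and 19.1% (18.1 to 20.1) of those of the NASH library. Between 30 and 80% the order was the opposite, with 463 chow and 2389 NASH diet barcodes, most of the latter shallow (median 1126 UMIs). Of the barcode sequences, 69 occurred in both libraries, and 24 of these were members in chow, 13 in the NASH library and 3 in both.

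Every member held mt-Co1 and mt-Atp6, the genes taken as their markers. Holding them does not set the members apart. Of the chow barcodes of at most 30%, 81 lacked mt-Co1 and 12 lacked mt-Atp6, and none did in the NASH library. The mean member had 949.7 mt-Co1 UMIs in chow and 1123 in the NASH library, and 990.8 and 1171 mt-Atp6 UMIs. In each library mt-Atp6, a subunit of the ATP synthase (complex V), was the largest part of the mitochondrial UMIs, at 18.7% (18.7 to 18.8) in chow and 18.8% (18.8 to 18.9) in the NASH library. Next came mt-Co1, the catalytic subunit of complex IV, at 18.0% and 18.1%. Its fellow subunits mt-Co3 and mt-Co2 took 16.6% and 13.1% in chow and 15.5% and 13.3% in the NASH library. The complex III gene mt-Cytb took 9.54% and 9.64%, and mt-Atp8, the other complex V gene, 0.279% and 0.428%. The complex I genes ran from mt-Nd4 (7.95% and 7.99%) and mt-Nd2 (6.62% and 7.11%) through mt-Nd1 (5.06% and 4.84%), mt-Nd3 (1.97% and 1.84%), mt-Nd5 (1.13% and 1.30%) and mt-Nd4l (1.02% and 1.0%) down to mt-Nd6. The last, the only one of the 13 on the minus strand, took 0.0584% and 0.0830%, and 452 chow and 52 NASH diet members had no mt-Nd6 UMI. Per base of transcript, mt-Atp6 was also the highest, with 23.6% and 23.8% of the length-scaled total, and mt-Co1 stood at 9.99% and 10.0%, below mt-Co3 and mt-Co2. Since a 3′ kit reads RNA ends and a UMI counts 1 molecule of any length, this scaled order is not an order of abundance. By complex, the 3 complex IV genes held 47.6% and 46.9% of the mitochondrial UMIs, the 7 complex I genes 23.8% and 24.2%, and the 2 complex V genes 19.0% and 19.3%.

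This make-up was nearly that of the barcodes of at most 30%. Only 3.04% of the mitochondrial UMIs in chow and 2.38% in the NASH library would have to move to other genes for the members to match them, and 1.44% for the members of the NASH library to match those of chow. Of the abundant genes mt-Co3 differed most in percentage points in both libraries, at 16.6% in chow members against 13.9% (log2 ratio 0.25) and 15.5% against 14.0% (0.14) in the NASH library. Lower in both was mt-Nd1, at 5.06% against 5.60% (−0.15) and 4.84% against 5.75% (−0.25), and mt-Co2, mt-Nd4 and mt-Cytb were lower by 0.77, 0.65 and 0.59 percentage points in chow. Against the shallow comparison set described next both directions turned, to −0.17 and −0.23 for mt-Co3 and to 0.69 and 0.76 for mt-Nd1. The log2 ratios of mt-Co1 and mt-Atp6 lay between −0.03 and 0.04. The rarest transcripts differed in direction by library: mt-Nd6 had log2 ratios of −0.08 (−0.12 to −0.03) and 0.69 (0.63 to 0.76), and mt-Atp8 of −0.23 and 0.33. The same held for mt-Nd3 (0.06 and −0.23) and mt-Nd4l (−0.12 and 0.09). In contrast, mt-Nd5 was higher in the members of both libraries (0.16 and 0.28), also against the shallow set (0.70 and 0.72). Among single members the shares varied far more than between the sums, with mt-Co1 from 11.6% at the 5th percentile to 21.6% at the 95th in chow.

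The likeness held for the deep comparison barcodes and not for the shallow ones. The deep ones held 9223718 of the 9569888 mitochondrial UMIs of the chow barcodes of at most 30%, and 4842066 of 5378652 in the NASH library. Their likeness was thus largely set by the sums above. A shallow set was formed from the barcodes of at most 30% whose nuclear-encoded UMIs lay within the central 90% of the members of their library (992 in chow, 669 in the NASH library). Its medians of 540 and 743 nuclear-encoded UMIs were still above the members' 214 and 317. Against this set 11.2% and 11.6% of the mitochondrial UMIs were placed differently. Those shallow barcodes had only 11.4% and 11.3% mt-Co1 but 23.4% and 23.8% mt-Atp6. Against the deep barcodes the figures were 3.11% and 3.26%. Within the members, mt-Co1 went from 15.0% at mitochondrial shares of 80 to 90% to 18.5% at 95 to 98% in chow, and from 17.6% to 18.3% in the NASH library. Over the same chow bins mt-Atp6 went from 21.3% to 18.3%, so the chow members nearest the limit stood closer to the shallow barcodes.

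**Figure D2:**
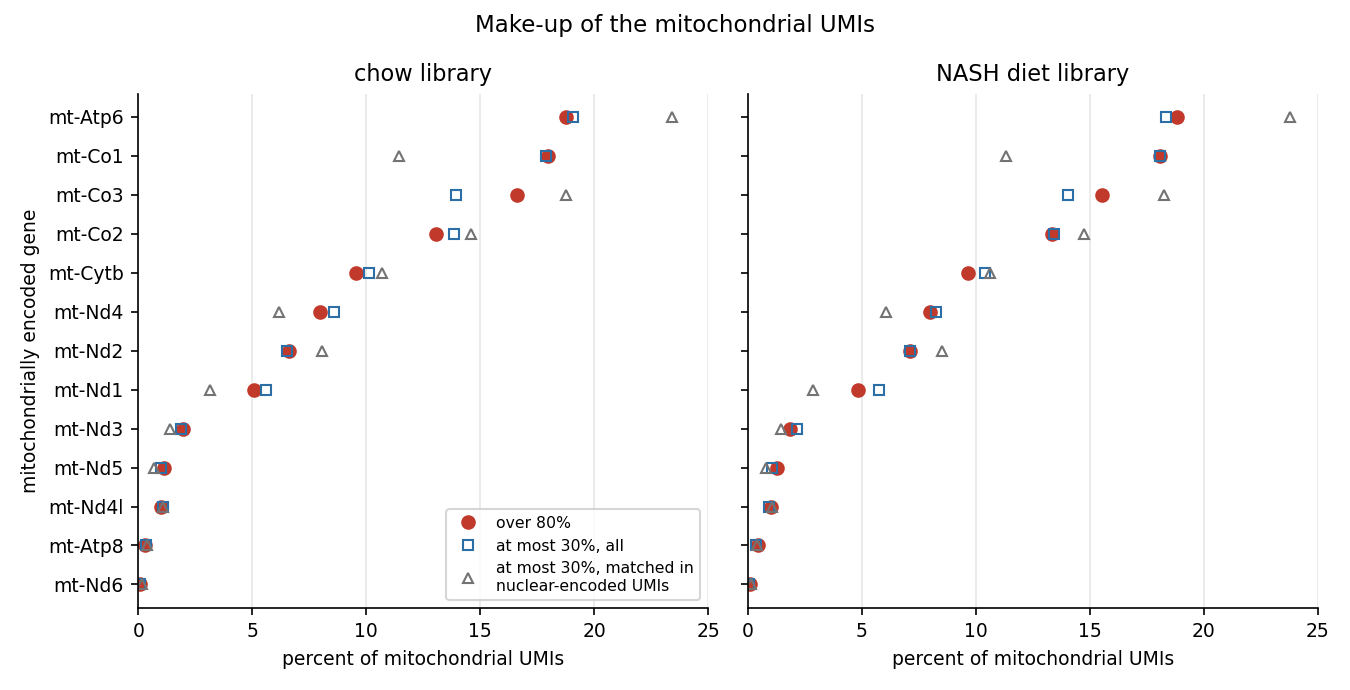
Share of the mitochondrial UMIs taken by each of the 13 genes, summed per library, in members (red circles), all barcodes of at most 30% (blue squares) and the shallow set matched in its range of nuclear-encoded UMIs (grey triangles). Circles and squares lie close together, with the widest gap at mt-Co3 (16.6% against 13.9% in chow), whereas the triangles stand apart at mt-Co1 (11.4% and 11.3%) and mt-Atp6 (23.4% and 23.8%).

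The nuclear-encoded RNA left in the members, 671951 UMIs in chow and 471164 in the NASH library, held the ribosomal RNA-like Gm42418 as its highest feature in both libraries, described below with Lars2, and next to it Alb. Levels are given as CPM, counts scaled to a common total of nuclear-encoded UMIs, of each group’s sum. Albumin (Alb), the main plasma protein made by hepatocytes, stood at 26926 CPM in chow members (26535 to 27321) against 29401 in the barcodes of at most 30%, and at 31223 against 42146 in the NASH library. Apoe, the apolipoprotein of lipid transport, was at 17236 against 10984 and at 23752 against 17049. The 30 secreted plasma proteins on the list together took 20.2% of nuclear-encoded UMIs in chow members against 20.8%, and 17.9% against 18.3%. Across the 4787 genes with a mean of at least 20 CPM over the 4 sums, levels in members and in barcodes of at most 30% had a Pearson correlation of 0.96 in chow and 0.92 in the NASH library on the log2 scale, given as a description across genes that share the library. No data on empty droplets were analysed here, so how much of this RNA was free RNA was not tested.

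Lars2 and Gm42418 stood far outside this pattern. With log2 ratios of CPM plus 5, and 2-fold as the limit, 7 genes in chow (0.146% of those tested) and 139 in the NASH library (2.9%) were higher in members, and 254 (5.31%) and 186 (3.89%) were lower. The medians of all genes were −0.22 and −0.13. These counts depended on the comparison: against the shallow set 276 genes were higher and 252 lower in chow, and 581 higher and 655 lower in the NASH library, of 4496. Only 4 genes were past 2-fold higher in both libraries, namely Lars2, Gm42418, AY036118 and Zc3h13, against 46 lower in both. Gm42418 and Lars2 are part of the total to which each gene is scaled. With both left out of the total the median moved by 0.10 in chow and 0.14 in the NASH library, and the share of higher genes among the called went from 42.8% to 58.3% in the NASH library.

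Lars2 (ENSMUSG00000035202, chromosome 9, 123366927 to 123462666, GRCm38), a nuclear gene for the enzyme that charges mitochondrial leucine transfer RNA, was at 18376 CPM in chow members (18054 to 18703) against 76.7 in barcodes of at most 30%, a 240-fold difference (log2 7.81). In the NASH library it was at 16894 (16525 to 17270) against 187, a 90.4-fold difference (log2 6.46). Gm42418 (ENSMUSG00000098178, chromosome 17, 39846958 to 39848788, plus strand) was at 62787 CPM in chow members (62190 to 63389) against 969, and at 83126 (82305 to 83953) against 2958, with log2 ratios of 6.01 and 4.81. M21 calls it a lincRNA, whereas RefSeq lists Gm42418 as a synonym of Rn18s-rs5, an 18S ribosomal RNA pseudogene. AY036118 lies inside it on the opposite strand, with all of its 923 bases shared, so the UMIs of these overlapping genes cannot be told apart without knowing how strand was used in counting. It had log2 ratios of 3.30 and 3.08. Gm26917, directly upstream at 39843013 to 39846341, was at 182 CPM in chow members against 108, and at 1730 against 177 in the NASH library (log2 0.73 and 3.25). The remaining gene higher in both, Zc3h13, a zinc finger protein of the RNA methylation machinery, rested on 78 and 30 UMIs (log2 2.14 and 1.48).

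Counted per barcode, these RNAs looked different from the rest of the nuclear-encoded RNA. The mean member had 16.4 Gm42418 UMIs in chow against 15.9 in the deep barcodes of at most 30%, and 34.9 against 32.0 in the NASH library, so its amount per barcode was 103% and 109% of that in deep barcodes. Lars2 was more abundant in absolute terms, with 4.80 UMIs per member against 0.992, and 7.09 against 1.74 (484% and 408%). Alb came to 7.04 UMIs per member against 677 in chow, or 1.04%, and 13.1 against 841, or 1.56%. The median over the 4787 genes was 1.0% in chow and 2.17% in the NASH library. Only 5 chow genes exceeded 10%, namely Gm42418, Lars2, AY036118 and the neutrophil genes S100a8 and S100a9, whose 14 and 11 UMIs came mostly from 1 member (78.6% and 54.5%). In the NASH library 26 genes did. AY036118, at 40.1% and 57.9%, was thus lower per barcode than in the deep barcodes despite its higher share. Against the shallow set, Gm42418 and Lars2 were still higher in members (log2 2.92 and 3.93 in chow, 1.64 and 3.22 in the NASH library), but AY036118 was lower (−0.81 and −0.48).

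**Figure D3:**
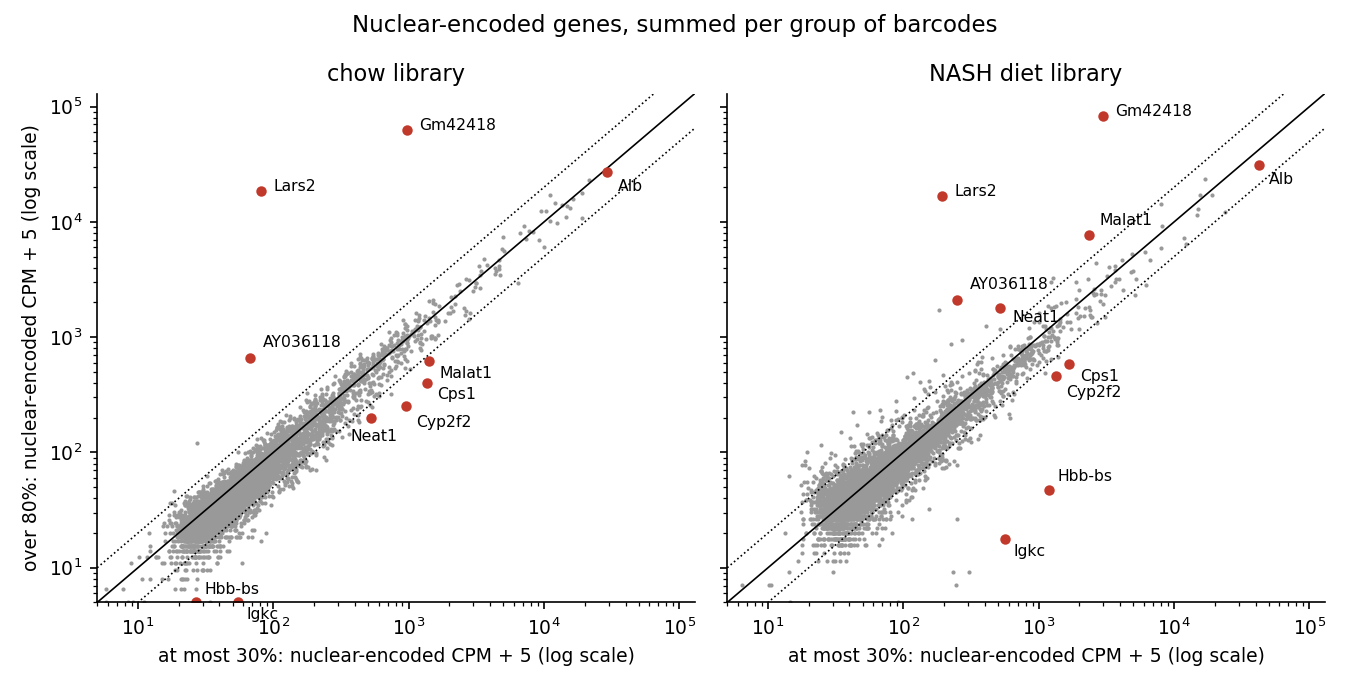
Level of each of the 4787 nuclear-encoded genes (CPM plus 5, log scales) in members against barcodes of at most 30%, each summed per library; the solid line marks equal levels and the dotted lines 2-fold differences. Most genes lie near the line, while Lars2 (18376 against 76.7 CPM in chow) and Gm42418 (62787 against 969) lie far above it and Cps1 and Cyp2f2 lie below it in both libraries.

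Both outliers followed the mitochondrial share within the members, and they also rose in the barcodes of 30 to 80%. There, at shares of 30 to 50% and of 50 to 80%, Gm42418 was at 1586 and 8051 CPM in chow. In the NASH library it was at 13630 and 24655. Lars2 was at 162 and 1434 CPM in chow and at 1084 and 2758 in the NASH library. The values that follow are for the members. Gm42418 went from 26291 CPM at shares of 80 to 90% to 96912 above 98% in chow, and from 42343 to 159896 in the NASH library. Lars2 went from 6324 to 26356 CPM and from 6666 to 39126. Alb stayed between 18240 and 31408 CPM over the 4 chow bins and between 28857 and 33975 over those of the NASH library. Nuclear-encoded depth moved with these bins, with medians of 379, 379.5, 169 and 86.5 UMIs in chow and 705, 349, 225.5 and 168 in the NASH library. The share and the nuclear-encoded depth are linked by construction, and the part of depth in these trends was not tested.

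**Figure D4:**
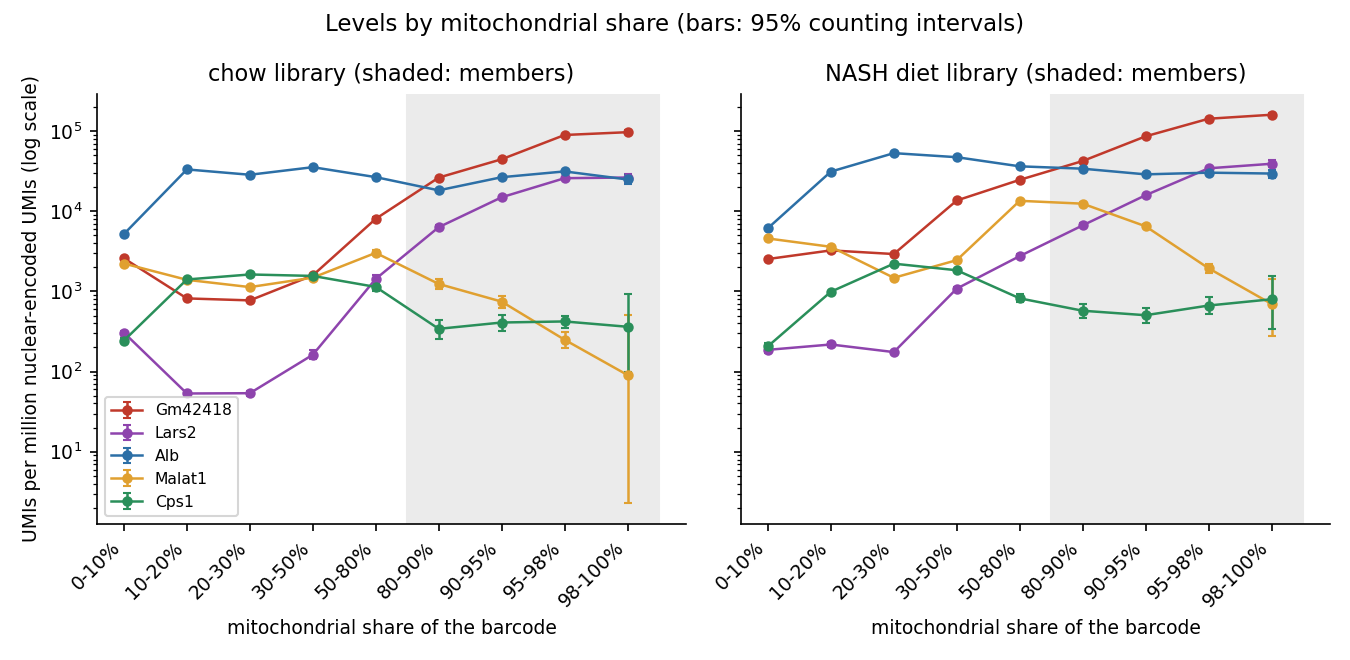
Levels of 5 RNAs (CPM of nuclear-encoded UMIs, log scale, bars are 95% counting intervals) summed over barcodes of rising mitochondrial share, with the members shaded. Gm42418 and Lars2 are higher at higher shares among the members of both libraries, and Malat1 is lower, from 12436 to 699 CPM in the NASH library.

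Among the genes lower in both libraries were several enzymes of hepatocyte metabolism. Cps1, the mitochondrial enzyme that starts the urea cycle, was at 399 CPM in chow members (353 to 450) against 1360, and at 575 (509 to 648) against 1680 in the NASH library, with log2 ratios of −1.76 and −1.54. The periportal cytochrome P450 gene Cyp2f2 was at 247 against 952 and at 454 against 1327 (−1.93 and −1.54). Cpt1a, the enzyme that passes fatty acids to mitochondrial oxidation, had −1.56 and −1.45, and the lipid droplet protein gene Hsd17b13 −1.34 and −1.14. The fatty acid hydroxylases Cyp4a10, Cyp4a14 and Cyp4a12a lay at −1.18, −1.25 and −1.42 in chow and −1.47, −1.22 and −1.22 in the NASH library, although Cyp4a10 and Cyp4a14 had only 5 and 3 UMIs in chow members. Others named by the same rule were the lysosomal protease Lgmn (−2.27 and −1.27), the sphingolipid enzyme Degs1 (−1.18 and −1.58), the sulfate carrier Slc26a1 (−1.24 and −1.50), Hsd17b6, Dram2, Plpp3, App and Cpd. Against the deep barcodes, Cps1 (−1.83 and −1.67) and Cyp2f2 (−2.01 and −1.69) kept their direction. Against the shallow set they did not: Cps1 had 0.07 and 0.64 there and Cyp2f2 0.67 and 1.09. The members thus lay below the deep barcodes and above the shallow set, except for Cps1 in chow. Its 399 CPM in members was near the 379 of the shallow set, which lies inside the counting interval. The sign also turned for Cpt1a, Hsd17b13, Cyp4a10, Cyp4a14, Cyp4a12a, Degs1, Slc26a1 and Cpd in both libraries. It did so for Hsd17b6 and Dram2 in chow, and for Plpp3 and App in the NASH library. In chow Cpt1a (0.0023), Cpd (0.047), Hsd17b6 (0.061) and Dram2 (0.016) were then near 0 and not clearly higher. Lgmn kept its direction in both libraries but was no longer past 2-fold.

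Transcript length went with the chow ratios. With genes split into 4 equal groups by length, from the shortest to the longest the median log2 ratio went from 0.05 to −0.46 in chow, whereas the NASH library gave −0.15 and −0.07. Against the shallow barcodes the order was the opposite, from −0.53 to 0.33 in chow and from −0.65 to 0.56 in the NASH library. Over all nuclear-encoded UMIs, 15.2% and 19.5% were placed differently between members and all barcodes of at most 30%, 16.3% and 20.3% between members and the deep ones, and 24.0% and 30.4% between members and the shallow ones.

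Genes of mitochondrial proteins that are encoded in the nucleus were compared as CPM of nuclear-encoded UMIs. This scale leaves out the mitochondrial mRNAs by which the members were chosen, so the 2 kinds of gene cannot be set against each other. Of the 79 subunits of oxidative phosphorylation, 77 over the minimum level, none was past 2-fold in either library. Over all genes, 0.146% were higher and 5.31% lower in chow, and 2.9% higher and 3.89% lower in the NASH library. The median log2 ratio of the subunits was 0.19 in chow and −0.07 in the NASH library, beside −0.22 and −0.13 over all genes. Examples are Uqcrq of complex III (1511 against 1308 CPM in chow, 1430 in both groups of the NASH library) and Atp5e of the ATP synthase (1380 against 1172, and 1203 against 1221). The 77 mitochondrial ribosomal proteins, 72 of them over the minimum, had medians of 0.20 and −0.07, with none past 2-fold. The 30 matrix enzymes had −0.19 and −0.11, with 2 lower in chow, and 1 higher and 1 lower in the NASH library. The 26 factors that make and process mitochondrial RNA had medians of −0.14 and 0.05, none past 2-fold among the 10 over the minimum. The RNA-binding stabiliser of mitochondrial mRNAs, Lrpprc, was at 44.7 against 68.8 CPM in chow and 87.0 against 81.6 in the NASH library. With the genes at 0 UMIs in 1 sum put at their bound the medians were −0.14 and 0.09. The ratios of Lars2 were thus not shared by these lists.

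Other mRNA groups ranged from near the level of all genes (medians −0.22 and −0.13, with 5.31% and 3.89% lower) to well below it. The 83 cytosolic ribosomal proteins had medians of 0.15 in chow and −0.29 in the NASH library (0.16 and −0.29 with 1 gene at 0 put at its bound), with none past 2-fold. The 30 cytosolic enzymes and carriers had 0.07 and −0.12, again with none past 2-fold, and the fatty acid carrier Fabp1 was at 7983 against 6654 CPM and 13021 against 14999. The 18 periportal genes had −0.47 and −0.09, with 5 and 3 lower, and the 18 pericentral genes 0.17 and −0.58, with 1 and 2 lower. The 23 genes of cholesterol synthesis had −0.66 and −0.39, with 8 and 1 lower. The 18 genes of the immediate early and heat shock response had −0.57 and 0.02, with 5 lower in chow and 1, Egr1, higher in the NASH library. The 18 stress response genes had −0.19 and −0.10 (−0.12 and −0.07 with genes at 0 at their bound), with 1 lower in chow. Of the 8 metallothionein and iron genes 2 were lower in chow and none in the NASH library. The 24 lipid genes had −0.52 and −0.33 (−0.44 and −0.33 with genes at 0 at their bound), with 3 and 5 lower, and the 20 acute phase genes −0.09 and −0.08. Against the shallow set list medians lay farther from 0, with 0.95 and 1.22 for the secreted plasma proteins (−0.01 and −0.06 against all barcodes of at most 30%), −0.69 and −0.84 for oxidative phosphorylation and −0.67 and −1.03 for the ribosomal proteins.

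Nuclear-retained RNAs differed in direction between the libraries. Malat1, an abundant long RNA of the nucleus, was at 612 CPM in chow members (554 to 674) against 1402, and at 7692 (7443 to 7946) against 2366 in the NASH library, log2 ratios of −1.19 and 1.70. Neat1, the scaffold RNA of paraspeckles, was at 193 against 522 and at 1791 against 509 (−1.41 and 1.80). Kcnq1ot1, an imprinted antisense RNA, followed with −1.45 and 1.27 on 7 and 53 UMIs. Within the NASH diet members Malat1 was highest near the limit, at 12436 CPM for shares of 80 to 90%, and stood at 6492, 1944 and 699 in the bins above. Chow members went from 1240 to 746, 250 and 90.6 CPM (1 UMI in the last bin). The mean Malat1 amount per member was 0.160 UMIs in chow and 3.23 in the NASH library, against 28.7 and 29.0 in deep barcodes. Against the shallow barcodes Malat1 was higher in the members of both libraries (2.33 and 2.52), so its direction in chow depended on the comparison.

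The genes highest in the members of the NASH library alone rested on few UMIs. After Lars2, Gm42418, Gm26917 and AY036118 they were Gm47283 (log2 2.39), Lgals4 (2.38), Fam193b (2.23), Tcirg1 (2.15) and Akap8l (2.12), with 103, 45, 52, 37 and 34 UMIs in the members. Their chow ratios lay between 0.04 and 0.49. These were picked after their values were seen.

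RNA of other cell types rested on few UMIs in the members. Of the 12 Kupffer cell markers, which define the resident macrophages of the liver, 3 in chow and 5 in the NASH library were at 0 UMIs in members, and their medians were −1.40 and −0.80, or −1.37 and −0.14 with these genes at their bound. Cd5l was at 13.4 against 60.4 CPM in chow and 6.37 against 25.1 in the NASH library (−1.83 and −1.40). Their summed level was 58.0 CPM in chow members against 333, and 57.3 against 136, with Timd4, Adgre1 and Cd163 at 0 UMIs in the members of both libraries. All 12 liver endothelial markers were lower as well, with medians of −1.02 and −1.05 and summed levels of 46.1 against 157 CPM and 161 against 379, although the direction turned in chow with members over 70% (median 0.42) and in the NASH library against the shallow set (0.64). In the lymphocyte list 7 of 12 genes in chow and 11 of 12 in the NASH library were at 0 UMIs in members, so its direction cannot be given (medians −0.14 and −0.71, but 0.46 and 0.68 with genes at 0 at their bound). Mesenchymal markers summed to 41.7 against 79.5 CPM and 115 against 288, led by Dcn (−1.40 and −2.15). Cholangiocyte markers summed to 99.7 against 177 and 70.04 against 141 CPM, with Epcam, Krt19 and Krt7 at 0 UMIs in members, and medians of −0.06 and −0.35 that became 1.85 and 1.07 with genes at 0 at their bound. Neutrophil markers summed to 43.2 against 132 and 132 against 123 CPM, led by S100a8 and S100a9 (72.4% of the S100a8 UMIs of the NASH diet members were from 1 barcode), with Cxcr2 and Ly6g at 0 UMIs. The platelet markers had 7 and 2 UMIs in all. Haemoglobin mRNA, which dominates red blood cells, was scarce in members: no Hbb-bs UMI in chow, at least 4.94-fold lower than the 22.1 CPM of the comparison barcodes by a floor of 3 UMIs over the group, and 20 UMIs in the NASH library (42.4 against 1181 CPM). In chow 60.7% of the Hbb-bs UMIs of the comparison barcodes came from 1 barcode, and against the deep barcodes of the NASH library Hbb-bs was higher in members (log2 2.61). Igkc, the antibody light chain of plasma cells, had 0 UMIs in chow members, at least 11.1-fold lower, and 6 in the NASH library (12.7 against 556 CPM), but 97.0% and 98.5% of its comparison UMIs came from 1 barcode each. Fewer cells of a type and less of its RNA per barcode cannot be told apart in these sums.

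The diets differed in the members much as in the barcodes of at most 30% for the acute phase and for cholesterol synthesis. Genes at least 2-fold higher in members of the NASH library numbered 772 (16.1%) and those lower 138 (2.88%), against 157 (3.28%) and 99 (2.07%) in the barcodes of at most 30%, with medians of 0.30 and 0.22 over all genes. The members' sums were far shallower, with 671951 and 471164 nuclear-encoded UMIs against 44882944 and 20385170, so their ratios carry more counting error. Saa2, a serum amyloid made in the acute phase response, was at 23115 CPM in chow members (22753 to 23481) and 323 (273 to 378) in those of the NASH library, a log2 ratio of −6.14, beside −5.93 in the barcodes of at most 30%. Saa1, Saa3, Lcn2, Apcs and Orm2, of the same response, had −4.60, −5.56, −4.75, −4.49 and −4.44 in members and −4.54, −5.38, −4.30, −4.28 and −4.39 in the others. Of the 20 acute phase genes 14 were lower in members and none higher, with a median of −1.87 beside −1.91. Of the 23 cholesterol synthesis genes 14 were lower and none higher, with −1.85 beside −2.04, among them Fdps (−4.15), Nsdhl (52 UMIs in chow and 0 in the NASH library), Msmo1 (−4.03), Idi1 (−3.95) and Hmgcs1 (−3.63). The metal-binding metallothioneins Mt1 and Mt2 had −1.71 and −3.00 in members and −1.37 and −2.71 in the others.

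Higher in the members of the NASH library were genes of fatty acid use and handling. Cyp4a10 was at 7.44 CPM in chow members (2.42 to 17.4) and 212 (173 to 258) in the NASH library, a log2 ratio of 4.13 beside 4.42 in the other barcodes. Its paralogue Cyp4a14 had 3.76 beside 3.73, Acaa1b, a thiolase of peroxisomal oxidation, 3.46 beside 3.23, and the apolipoprotein Apoa4 3.32 beside 2.76. Scd1, the desaturase that makes monounsaturated fatty acids, was at 981 CPM in chow and 7284 in the NASH library (2.89 beside 3.02). Of the 24 lipid genes 9 were higher and none lower in members, as in the other barcodes, and their median was 1.17 (1.36 with the 3 genes at 0 in 1 sum put at their bound). The clock output genes Dbp and Tef had 3.32 and 3.46 beside 2.79 and 1.82, with 6 and 8 UMIs in chow members.

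Some diet ratios were larger in the members than in the other barcodes. They included the nuclear-retained RNAs Malat1 (3.64 beside 0.75), Neat1 (3.18 beside −0.04) and Kcnq1ot1 (2.93 beside 0.20). Gm26917, upstream of Gm42418, had 3.22 beside 0.69. The nuclear receptor gene Nr1i3 had 3.59 beside 1.55, on 32 and 297 UMIs, and Lgals4 3.01 beside 0.94. Egr1, an immediate early transcription factor, had 2.08 beside −0.63. Cytosolic ribosomal proteins differed the other way, with a median of −0.42 in members and 0.05 in the others, and 76 of 83 were below 0. The differences between these ratios were not tested, since each diet had 1 library. The oxidative phosphorylation subunits had 0.07 beside 0.37, with 1 of 79 past 2-fold higher in members.

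**Figure D5:**
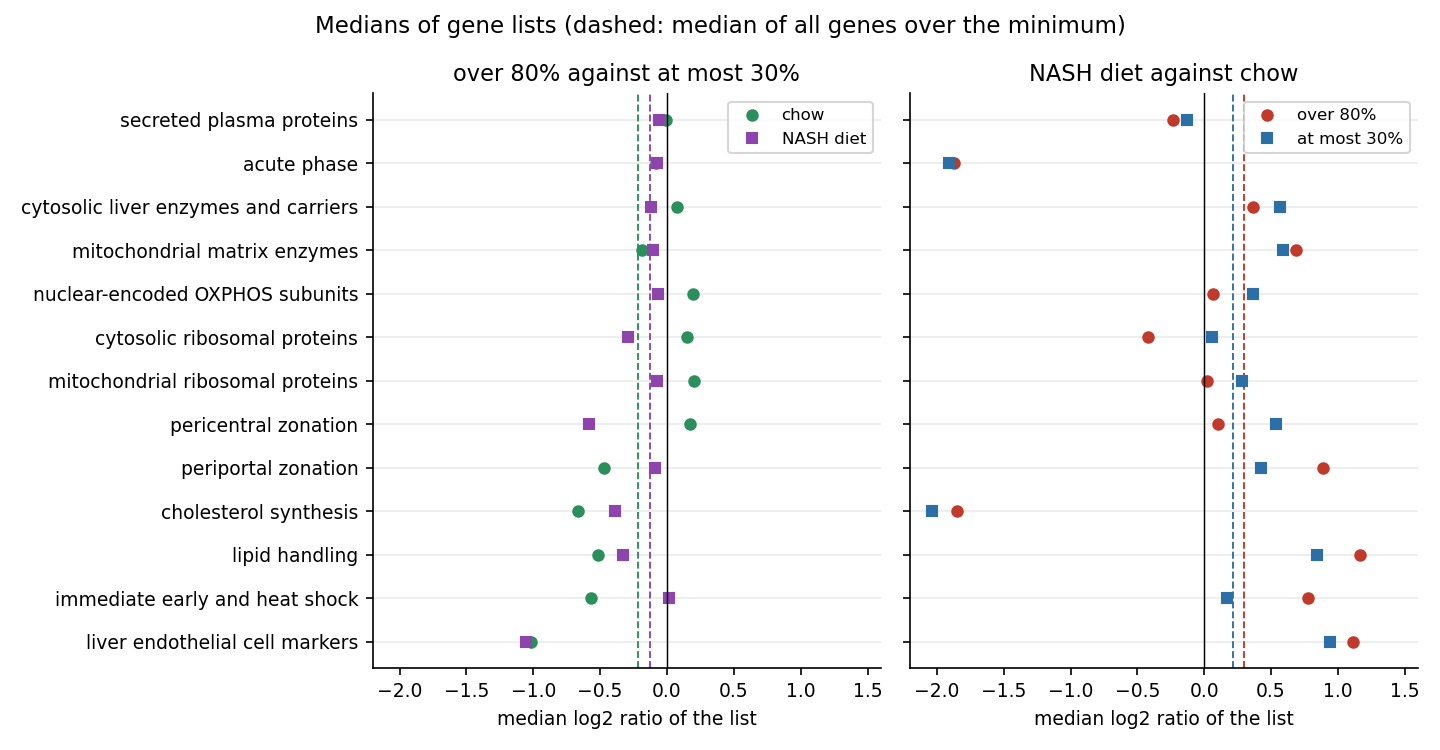
Median log2 ratio of 13 gene lists, for members against barcodes of at most 30% in each library (left) and for the NASH diet against chow in members and in barcodes of at most 30% (right); dashed lines mark the medians of all genes. On the left most lists lie within 0.7 of 0 and the endothelial markers at −1.02 and −1.05, and on the right acute phase and cholesterol synthesis lie near −1.9 in members and other barcodes alike.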

How the data were processed

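Single-cell 3′ RNA libraries from 1 chow and 1 NASH diet liver sample were analysed from the deposited counts, whole UMIs per gene and barcode that the authors had made and filtered to cell barcodes. Per the file headers the software version was 3.0.2, whereas the submitters' processing notes name Cell Ranger 3.1.0, Seurat and mm10. The gene annotation used is not stated in the sources read here. Of 31053 gene IDs, 31011 (99.9%) were found in GENCODE M21.

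Members were barcodes with over 80% of UMIs from mt- genes, and comparison barcodes had at most 30%. UMIs were summed per library and group, nuclear-encoded genes were scaled to CPM, and log2 ratios used a pseudocount of 5 CPM. Genes with a mean of at least 20 CPM over the 4 sums were compared, and 2-fold was the limit for a call. With 1 library per diet no test was made. Intervals are exact (Poisson for levels, Clopper-Pearson for shares) at 95%, and bounds used a floor of 3 UMIs over a group; since barcodes differ, both cover counting error only. Genes were named by rule. From those with at most 25% of a group's UMIs in 1 barcode came the 12 highest and 12 lowest by the ratio nearest 0 of the 2 libraries. The 12 highest and lowest between diets in members were taken under the same limit. Without that limit came all mt- genes, the 3 highest of each list, and list genes past 2-fold in the same direction in both libraries. Others were chosen after their values were seen. The members and gene lists were chosen with earlier results of these data known. No doublet caller was run, and free RNA was not measured. Alternatives changed the limits on mitochondrial share, the comparison barcodes, the matrix, the weighting of barcodes, the pseudocount and the gene minimum. Python 3.11.15, numpy 2.4.6, scipy 1.17.1, pandas 2.3.3, matplotlib 3.10.9 and blastn 2.17.0 were used, and the code was tested on simulated data.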

Additional observations from a re-analysis of the deposited data

Results flagged for a closer look

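For 7 genes the log2 ratio of members to barcodes of at most 30% was past 2-fold in both libraries but in opposite directions, lower in chow and higher in the NASH library. The difference between the libraries was not tested, since each diet had 1 library. The ratios in chow and in the NASH library were −1.19 and 1.70 for Malat1, −1.41 and 1.80 for Neat1, −1.45 and 1.27 for Kcnq1ot1, −1.49 and 1.22 for Egr1, −1.01 and 1.38 for Ints1, −1.22 and 1.01 for Snrnp70, and −1.06 and 1.12 for Atp9b. Over all genes tested, 5.31% were at least 2-fold lower in chow and 2.9% higher in the NASH library. Kcnq1ot1 rested on 7 UMIs in chow members, 28.6% of them from 1 barcode, and on 53 in the NASH library. Against the shallow set, Malat1 and Neat1 were higher in chow members as well (2.33 and 2.43).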

How the results depend on the processing

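Of 1064 alternative values of the 97 named gene ratios past 2-fold, 1023 kept their sign and 917 stayed past 2-fold. These pooled counts do not measure how firm the signs are, because a change of pseudocount cannot change a sign. A limit of 200 genes and 500 UMIs removed no chow comparison barcode. Most of the turned gene ratios came from 1 setting, the shallow set matched in nuclear-encoded UMIs. The cause of the differences below was not tested. With members over 70% the shares of barcodes were 36.7% in chow and 20.5% in the NASH library, the endothelial list had a median of 0.42 in chow and of −0.14 between diets, and Dnase1l3 and Kdr had 0.51 and 0.54 in chow. With members over 90% the shares were 30.4% and 15.4%, and 292 genes were lower in the NASH library. Against the shallow set matched in nuclear-encoded UMIs, 11.2% and 11.6% of mitochondrial UMIs were placed differently, 276 genes were higher in chow, and 581 were higher and 655 lower in the NASH library. Ratios of named nuclear-encoded genes past 2-fold that turned there in chow were AY036118 (−0.81), Apip (−0.43), Cpd (0.047), Cps1 (0.072), Cpt1a (0.0023), Cyp2f2 (0.67), Cyp4a10 (0.23), Cyp4a12a (0.55), Cyp4a14 (0.46), Degs1 (0.32), Dnase1l3 (0.33), Dram2 (0.016), Hsd17b13 (0.72), Hsd17b6 (0.061), Malat1 (2.33), Neat1 (2.43) and Slc26a1 (0.87). Mitochondrial ratios, none past 2-fold in chow, turned there as well for mt-Co3 (0.25 to −0.17) and mt-Nd1 (−0.15 to 0.69), among others. Nuclear-encoded ratios that turned in the NASH library were the endothelial list (0.64), the erythroid list (0.024), AY036118 (−0.48), App (0.23), Cpd (0.28), Cps1 (0.64), Cpt1a (0.71), Cyp2f2 (1.09), Cyp4a10 (0.77), Cyp4a12a (1.17), Cyp4a14 (1.66), Degs1 (0.42), Dnase1l3 (0.62), Hba-a1 (0.048), Hbb-bs (1.34), Hsd17b13 (0.96), Igkc (0.46), Kdr (0.52), Plpp3 (0.34) and Slc26a1 (0.78). With the mean of single barcodes, 5.52% and 5.70% of mitochondrial UMIs were placed differently, and 20 genes were higher in chow and 86 in the NASH library. A pseudocount of 1 gave 11 genes higher in chow. A pseudocount of 20 gave 4 higher and 64 lower in chow, 63 and 83 in the NASH library, and 388 higher between diets in members. No gene minimum gave 17 and 543 in chow, 297 and 547 in the NASH library, and 1801 and 282 between diets, and a minimum of 100 CPM gave 3 and 55, 34 and 49, and 132 and 73. Of 2 alternatives chosen after seeing the data, the comparison with barcodes of at least 10000 UMIs gave 11 genes higher in chow, and in the NASH library 0.30 for the erythroid list, 0.73 for Hba-a1 and 2.61 for Hbb-bs. The other, leaving Gm42418 and Lars2 out of the total, moved the share of higher genes among those called from 2.68% to 3.68% in chow and from 42.8% to 58.3% in the NASH library. Members with a median of 214 and 317 nuclear-encoded UMIs limit what single genes can show, since 3 UMIs are 4.46 CPM in chow and 6.37 CPM in the NASH library. No paired analysis was possible because each diet had 1 library.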
